A study of Mus musculus with 6 samples.

Results

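Caspases and the genes of lytic cell death were followed by RNA-Seq in Th9 cells, CD4+ helper T cells driven towards production of interleukin-9. The genes were 5 caspase genes, Casp1, Casp4, Casp6, Casp8 and Casp9, together with Mlkl, Ripk3 and Gsdmd. They were taken by name, and all 8 were found among the 41388 Ensembl genes of the table. Naive CD4+ T cells from spleen and lymph nodes of C57BL/6 mice, 8 to 12 weeks old, were activated through CD3 and CD28. They were kept for 2 days with IL-2, IL-4, TGF-β and an antibody to mouse IFN-γ, and recombinant rat IFN-γ was present at 5 ng per ml. This medium was shared by both groups, 3 cultures of WT cells and 3 cultures of cells from IRF1-deficient (Irf1-/-) mice. The Irf1-/- mice lacked the transcription factor IRF1 in every cell and not in T cells alone, and the altered part of the Irf1 gene was not given in the sources used here. The comparison asked which of these death genes differed in RNA level between WT and Irf1-/- Th9 cells when IFN-γ was present.

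Caspases are proteases that cut after aspartate. Caspase-1, activated in inflammasomes, and caspase-4 (the mouse protein often called caspase-11), activated by bacterial lipopolysaccharide in the cytosol, cleave gasdermin D, the product of Gsdmd. Its freed part opens pores in the plasma membrane, the lytic death called pyroptosis. In necroptosis, the kinase RIPK3 phosphorylates the pseudokinase MLKL, which then ruptures the membrane. Caspase-8, the initiator caspase of death receptors such as FAS, starts apoptosis and restrains RIPK3. Caspase-9 is the initiator on the mitochondrial route, and caspase-6 belongs to the executioner caspases. Interferons are well known to raise several of these genes in macrophages. In T cells, death through FAS and caspase-8 limits the size of activated populations.

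The libraries held from 5639788 to 13348230 reads on genes, and replicate 3 of both genotypes was about as deep as replicates 1 and 2 together. Values are normalized counts, the reads on a gene divided by the size factor of its library, so that a single read was worth from 0.615 to 1.39. The targeted gene, Irf1, had 2968, 2907 and 2660 in WT and 1780, 1729 and 1476 in Irf1-/- cultures, and reads on it thus remained. Markers of CD4+ T cells were abundant everywhere, with sums from 12545 to 13261 over 6 genes, and the 3 NK cell markers were at 0 in all libraries. WT replicates 1 and 2 carried Y-linked RNA (summed values of 2301 and 2306 over 4 genes, against 0 to 11.1 in the other 4 libraries), which goes against the sex-matched mice that the methods describe. Irf1-/- replicate 2 had a sum of 1151 over 10 myeloid markers, against 63.9 to 319.8 in the other 5 libraries, and 9 of the 10 markers were highest there. The other marker, Mpeg1, had 89.9, 110.6 and 80.5 in WT and 60.9, 56.9 and 19.8 in Irf1-/- cultures, without overlap. The study describes the samples as independent. In both genotypes replicates 1 and 2 were closest to each other, at 1.28 times the sampling variance in WT and 1.82 in Irf1-/- (chi-square per degree of freedom), against 5.85 to 7.21 for the pairs with replicate 3. The intervals and p-values below take the 3 cultures of a genotype as independent, and may be too narrow if replicates 1 and 2 are not.

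Casp1, Casp4 and Gsdmd had few reads in WT Th9 cells and fewer in Irf1-/- cells, and of these 3 genes Gsdmd alone had enough reads for the main test. Casp1 (ENSMUSG00000025888, GRCm38 chromosome 9 from 5298517 to 5307265 on the + strand) had 16.2, 10.8 and 14.8 normalized counts in WT replicates 1, 2 and 3. In the Irf1-/- replicates it had 0, 2.77 and 1.28. The genotypes did not overlap, and no Irf1-/- library held more than 2 reads on the gene. Casp4 (ENSMUSG00000033538, chromosome 9 from 5308828 to 5336783 on the + strand), which starts 1.6 kb beyond the end of Casp1, had 14.98, 14.4 and 12.3 in WT cells and 2.39, 2.77 and 1.28 in Irf1-/- cells. Again no Irf1-/- value came near a WT value.

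With means over all 6 libraries under 10, Casp1 and Casp4 did not pass the filter on low values, and the main test does not cover them. Casp1 had 46 reads over the WT libraries and 4 over the Irf1-/- libraries, a WT level 11.0 times the Irf1-/- level (95% interval 4.02 to 42.1, exact binomial, counting error only). For Casp4 the reads were 44 and 6, a ratio of 7.03 (95% interval 2.98 to 20.2). With no filter on low values, both genes were lower in Irf1-/- cells in limma (adjusted p = 0.00271 for Casp1 and 0.00391 for Casp4), in edgeR (1.46e-06 and 3.23e-05) and in DESeq2 (0.00609 and 0.0128). Casp12, the third caspase gene of this cluster, had no read in WT libraries and at most 1.39 normalized counts in an Irf1-/- library.

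Gsdmd (ENSMUSG00000022575, chromosome 15 from 75862327 to 75867408 on the + strand) passed the filter. Its normalized counts were 42.4, 39.7 and 51.6 in WT cells and 17.9, 11.1 and 8.95 in Irf1-/- cells. All 3 Irf1-/- values lay far below the lowest WT value. The mean fell from 44.6 ± 6.26 (SD, n = 3) to 12.7 ± 4.68 (SD, n = 3), or to 28.4% of WT. The log2 fold change was -1.78 (standard error 0.284, 95% interval -2.41 to -1.16, adjusted p = 0.00158 in limma, Benjamini-Hochberg over all genes tested). In bulk RNA, fewer cells with a transcript and less of it per cell cannot be told apart. Between the deeper replicate 3 libraries the log2 difference was -2.40, and within replicates 1 and 2 it was -1.47.

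**Figure D1:**
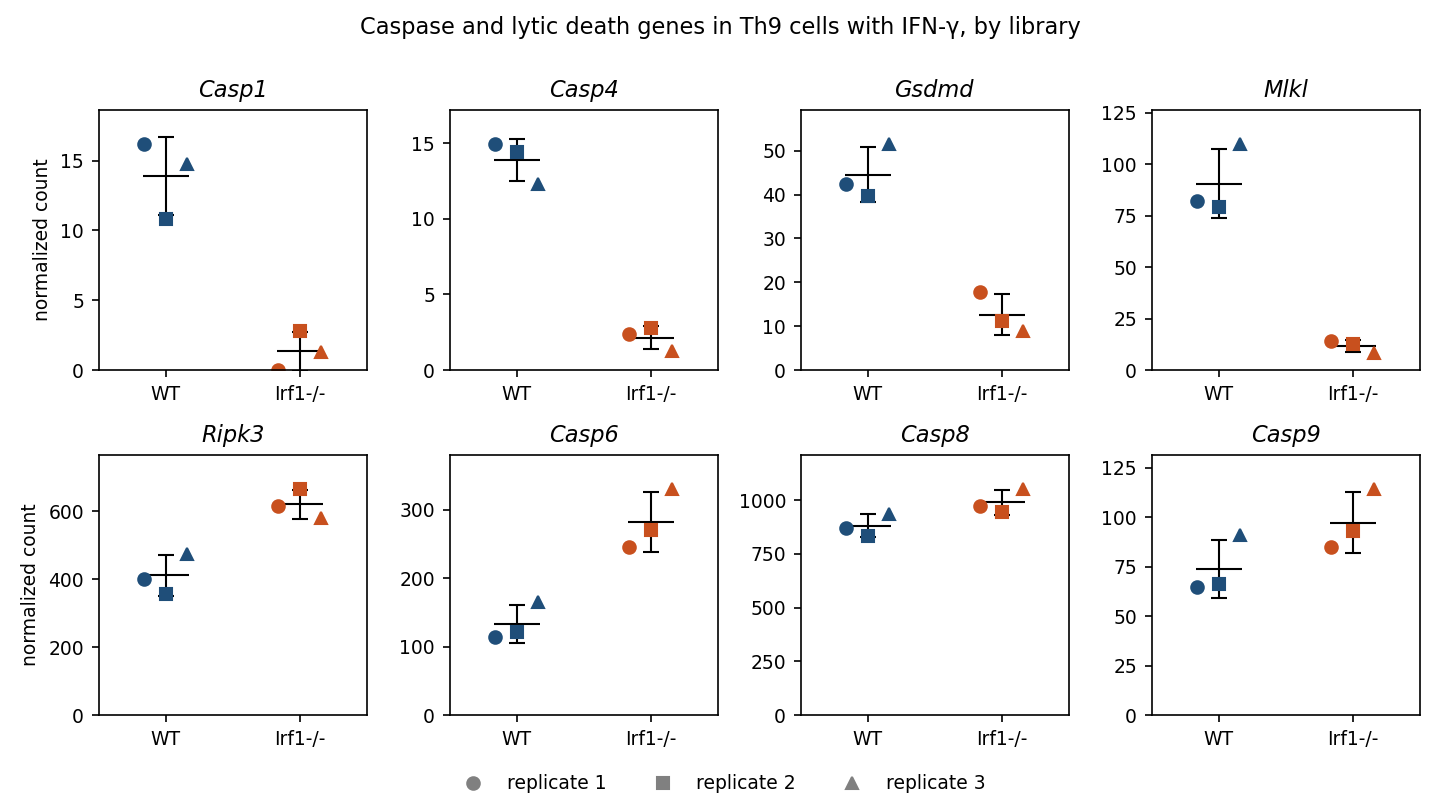
Normalized counts of the 8 genes in each library, with WT in blue, Irf1-/- in orange, a marker shape for each replicate number, and a horizontal line with a bar for the mean and SD of 3 cultures. Casp1, Casp4, Gsdmd and Mlkl lie lower in every Irf1-/- library than in any WT library, whereas Ripk3, Casp6 and, by a small margin, Casp8 lie higher. The scales differ between panels.

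In the pair of necroptosis genes, the kinase and its substrate moved in opposite directions. Mlkl (ENSMUSG00000012519, chromosome 8 from 111311797 to 111338177 on the - strand) had 82.4, 79.3 and 110.03 normalized counts in WT cells. The Irf1-/- cells had 14.3, 12.5 and 8.31, so that the highest of them was far below the lowest WT value. Its mean fell from 90.6 ± 16.9 (SD, n = 3) to 11.7 ± 3.08 (SD, n = 3), and the log2 fold change was -2.86 (standard error 0.247, 95% interval -3.41 to -2.32, limma adjusted p = 3.52e-05). Among the 11379 genes tested, Mlkl had the 23rd lowest log2 fold change and Gsdmd the 62nd lowest. The log2 difference in Mlkl was -3.58 between the replicate 3 libraries and -2.51 within replicates 1 and 2.

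Ripk3 (ENSMUSG00000022221, chromosome 14 from 55784995 to 55788865 on the - strand) had 400.6, 357 and 475 normalized counts in WT cells and 616, 666 and 581 in Irf1-/- cells. Every Irf1-/- culture was above every WT culture. The mean rose from 411 ± 59.7 (SD, n = 3) to 621 ± 42.6 (SD, n = 3), and the log2 fold change was 0.60 (standard error 0.102, 95% interval 0.38 to 0.83, limma adjusted p = 0.00226). The call was not kept in every setting. With replicates 1 and 2 of each genotype averaged, the log2 fold change was 0.52 (limma adjusted p = 0.0571). Without WT replicates 1 and 2, which leaves a single WT library, it was 0.38. With Y-linked RNA as a covariate it was 0.47 (limma adjusted p = 0.00531). Between the replicate 3 libraries it was 0.29, against 0.76 within replicates 1 and 2, and the part of sex in the difference was not tested further.

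Of Casp6, Casp8 and Casp9, the caspases of apoptosis among the 8 genes, only Casp6 passed the test. Casp6 (ENSMUSG00000027997, chromosome 3 from 129901425 to 129914103 on the + strand) had 114, 121 and 165 normalized counts in WT cells and 246, 270.4 and 330.4 in Irf1-/- cells. The lowest Irf1-/- value was well above the highest WT value, and replicate 3 was highest in both genotypes. The mean rose from 133 ± 27.9 (SD, n = 3) to 282 ± 43.4 (SD, n = 3), a 2.12-fold higher level. The log2 fold change was 1.08 (standard error 0.154, 95% interval 0.74 to 1.42, limma adjusted p = 0.000821). It was 0.99 between the replicate 3 libraries, 1.13 within replicates 1 and 2, and 0.76 without WT replicates 1 and 2, which leaves a single WT library.

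Casp8 (ENSMUSG00000026029, chromosome 1 from 58795374 to 58847503 on the + strand) was the most abundant of the 8 genes. Its normalized counts were 872, 832 and 937 in WT cells and 971, 944 and 1053 in Irf1-/- cells. The genotypes did not overlap, but the lowest Irf1-/- value exceeded the highest WT value only slightly. The log2 fold change of 0.17 (standard error 0.0678, 95% interval 0.02 to 0.32) did not pass after adjustment over all genes (limma adjusted p = 0.0992). Casp9 (ENSMUSG00000028914, chromosome 4 from 141793612 to 141815976 on the + strand) had 64.9, 66.1 and 91.0 in WT cells and 84.8, 92.9 and 114 in Irf1-/- cells. WT replicate 3 lay above Irf1-/- replicate 1, and the difference of 0.40 on the log2 scale (standard error 0.174, 95% interval 0.01 to 0.78) had an adjusted p of 0.125 from limma. Without WT replicates 1 and 2 the log2 fold changes of Casp8 and Casp9 were 0.08 and 0.09, and with Y-linked RNA as a covariate 0.08 and 0.14. The span of Casp9 overlaps Cela2a and Ctrc on the other strand, and both were at 0 in all 6 libraries.

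Of the 8 genes, 6 passed the filter, and of these Gsdmd and Mlkl were called lower and Ripk3 and Casp6 higher at an adjusted p below 0.05. Over all genes tested, 12.4% were called lower and 11.4% higher, 23.7% together. WT and Irf1-/- values were fully apart for 5 of the 6 genes, which over all genes tested was so for 40.5%. The median log2 fold change of the 6 genes was 0.28, against -0.0037 over all genes tested. Casp1 and Casp4, under the filter, are in none of these counts nor in the median. Their log2 fold changes, outside the main test, were -2.85 and -2.27.

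The differences were of similar size without the library that had the high myeloid sum. Without Irf1-/- replicate 2 the log2 fold change was -2.92 for Mlkl (limma adjusted p = 0.000409), -1.72 for Gsdmd (adjusted p = 0.00944), 0.55 for Ripk3 (adjusted p = 0.0164) and 1.11 for Casp6 (adjusted p = 0.00645). Casp1, Casp4 and Gsdmd, which myeloid cells express, had 2.77, 2.77 and 11.1 normalized counts in that library, each below the lowest WT value of its gene. The methods describe negative magnetic selection of CD4+ T cells, which removes myeloid cells, and for some experiments a further sort of naive cells. The part of any myeloid cells that remained was not tested.

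Stretches upstream of the start sites show what lies before the genes that fell. Promoter windows of 250 bases before and 50 after the start were taken from a set drawn from RefSeq (GRCm38.p6). In that set a window was found for 7 of the 8 genes, and none was found for Gsdmd. IRF proteins bind the interferon-stimulated response element, searched on both strands as GAAA, any bases NN and GAAA again. The letters of this motif stood in none of the 8 windows of these 7 genes (Casp4 has 2 starts). Of all 32851 windows, 3.44% held the motif. The looser form used in the study, AA, any bases NN and GAAA, was searched after the data were seen. It stood in 3 of the 8 windows, both of Casp4 and that of Casp8, and in 23.9% of all windows. The 250 bases before the start of Casp1 (chr9:5298267-5298516, + strand), Casp4 (chr9:5308599-5308848, + strand) and Mlkl (chr8:111338206-111338455, - strand) are given 5′ to 3′ as the genes that were far lower in Irf1-/- cells, with each GAAA, or TTTC on the other strand, in capitals.
Casp1: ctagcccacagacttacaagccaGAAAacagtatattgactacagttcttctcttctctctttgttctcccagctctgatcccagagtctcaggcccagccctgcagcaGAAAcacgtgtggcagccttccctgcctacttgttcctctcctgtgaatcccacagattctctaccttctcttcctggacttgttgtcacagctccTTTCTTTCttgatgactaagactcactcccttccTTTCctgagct
Casp4: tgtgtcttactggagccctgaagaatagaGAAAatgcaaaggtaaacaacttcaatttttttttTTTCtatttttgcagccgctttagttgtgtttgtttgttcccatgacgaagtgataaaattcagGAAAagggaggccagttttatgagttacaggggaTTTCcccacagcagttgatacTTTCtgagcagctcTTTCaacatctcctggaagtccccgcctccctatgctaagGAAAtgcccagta
Mlkl: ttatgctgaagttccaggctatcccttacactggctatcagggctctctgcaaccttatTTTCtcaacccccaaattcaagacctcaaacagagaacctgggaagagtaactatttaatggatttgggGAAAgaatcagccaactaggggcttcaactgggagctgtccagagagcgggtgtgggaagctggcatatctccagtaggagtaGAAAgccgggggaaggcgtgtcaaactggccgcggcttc
The capital units numbered 5 before Casp1, 7 before Casp4 and 3 before Mlkl, with a median of 2 in the same 250 bases of all windows. At the second start of Casp4 there were 8. Casp8, which was not called, had 6 before the start used here (chr1:58802252-58802501), a stretch inside the gene span given above. Ripk3, which was higher, had 3, and Casp6 and Casp9 had none. A relation between the number of units and the direction was not tested. The windows are short, and a match or its absence describes only these letters.

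Compared per kb of annotated exon, the genes spanned a wide range. The length of a gene is that of its annotated exons merged over all transcripts, and the order depends on it. In WT cells Casp8 had 304 ± 18.4 (SD, n = 3) normalized counts per kb and Ripk3 179 ± 26.1 (SD, n = 3). They were followed by Mlkl with 39.3 ± 7.34, Casp6 with 23.9 ± 4.998, Gsdmd with 18.8 ± 2.64 and Casp9 with 14.2 ± 2.83 (SD, n = 3 each). Casp1 had 9.31 ± 1.87 and Casp4 3.75 ± 0.382 (SD, n = 3 each). Before division by length both had a WT mean of 13.9, and their merged exon lengths were 1.497 and 3.71 kb. Casp6 and Gsdmd, as well as Gsdmd and Casp9, differed by no more than the sum of their SDs. In Irf1-/- cells Casp8 (342 ± 19.5) and Ripk3 (271 ± 18.6) still led, and Casp6 (50.5 ± 7.78) and Casp9 (18.7 ± 2.94) stood above Gsdmd (5.32 ± 1.97) and Mlkl (5.08 ± 1.34), again as SD with n = 3. Mlkl, the third of the 8 in WT cells, thus came next to Gsdmd, from which it did not differ beyond the spread.

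**Figure D2:**
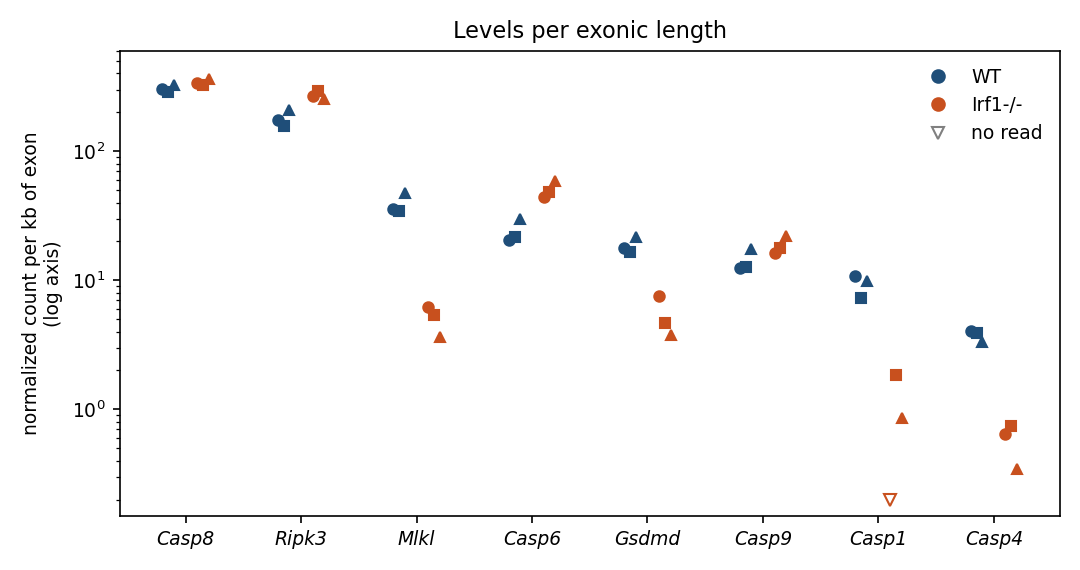
Normalized count per kb of exon on a log axis for each library, WT in blue and Irf1-/- in orange, ordered by the WT mean, with circles, squares and triangles for replicates 1, 2 and 3. The open, downward triangle stands for no read, here on Casp1 in Irf1-/- replicate 1, and is drawn at the foot of the axis, and Mlkl drops from 39.3 to 5.08 per kb while Ripk3 next to it goes from 179 to 271.

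Ratios were also taken within each library, of normalized counts plus 1, so that its size factor nearly cancels. The log2 ratio of Mlkl to Ripk3 was -2.27, -2.16 and -2.10 in WT cells and -5.33, -5.63 and -5.97 in Irf1-/- cells, a difference of -3.47. Per kb, Mlkl was at 0.205 to 0.230 of Ripk3 in WT cells and at 0.0142 to 0.0231 in Irf1-/- cells. Casp8 was also set against Cflar, which lies 36.5 kb from it and encodes c-FLIP, the catalytically dead relative of caspase-8 that blocks its activation. The log2 ratio of Casp8 to Cflar was -0.45, -0.51 and -0.38 in WT cells and 0.31, 0.22 and 0.14 in Irf1-/- cells. The values did not overlap, with a difference of 0.67. Per kb, Casp8 was at 3.07 to 3.37 times Cflar in WT cells and at 4.82 to 5.42 times in Irf1-/- cells. These levels rest on exon lengths merged over all annotated transcripts. Before division by length, Casp8 was below Cflar in every WT library. For both differences the two-sided exact permutation test gave 0.1, which is the smallest p possible for 3 samples against 3. The log2 ratio of Casp1 to Casp4 had means of -0.01 in WT and -0.59 in Irf1-/- cells (exact two-sided permutation p = 0.5), at 2 reads or fewer in each Irf1-/- library.

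The other genes of these pathways were taken from lists of 69 genes in 7 groups. Of the 43 that passed the filter, limma called 13 lower and 3 higher, or 37.2%, beside 23.7% of all genes tested, with a median log2 fold change of -0.07. With replicates 1 and 2 averaged, 6 were lower, and the share of all genes called lower was then 3.46% in place of 12.4%. The lists were written with earlier results of these data known.

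Of 16 inflammasome sensors and adaptors, 13 were under the filter, 5 of them with no read at all. Pycard, the adaptor ASC that joins sensors to caspase-1, had means of 304 ± 11.7 and 315 ± 16.9 (SD, n = 3) (95% interval of the log2 fold change -0.13 to 0.23, limma adjusted p = 0.696). Aim2, a sensor of cytosolic DNA, rose from 304 ± 15.1 to 465 ± 15.2 (SD, n = 3), and the log2 fold change was 0.62 (limma adjusted p = 0.000306). Nek7, a partner of NLRP3, was lower by 0.37 on the log2 scale (limma adjusted p = 0.0153), a call lost without Irf1-/- replicate 1 or 2 and under 5 of 19 alternatives in all.

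Il1a rose, from 296, 281 and 196 normalized counts in WT cells to 374, 483 and 475 in Irf1-/- cells, and the log2 fold change was 0.79 (limma adjusted p = 0.00449). Il1b, the substrate of caspase-1, had 251 normalized counts in Irf1-/- replicate 2 and 4.92 to 12.1 in the other 5 libraries. That is the library with the high myeloid sum, where Nlrp3 also had 26.3 against at most 2.50 elsewhere. Il1b, Nlrp3 and the marker Mpeg1 were singled out after their values were seen. The part of other cells in them was not tested. Gsdme, another gasdermin gene, had 103.6 and 103.4 as means (95% interval of the log2 fold change -0.31 to 0.33), and 8 of the 10 genes on the list of other gasdermins and membrane rupture were under the filter.

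Of 12 tested partners of necroptosis, 3 were lower and 1 was higher, 33.3% beside the 23.7% called over all genes tested. Zbp1, a nucleic acid sensor that engages RIPK3, had 77.4, 96.2 and 118 normalized counts in WT cells and 28.7, 38.8 and 58.8 in Irf1-/- cells. The values did not overlap, and the log2 fold change was -1.23 (limma adjusted p = 0.00619), a call lost under 1 of 19 alternatives, with replicates 1 and 2 averaged. Cyld, which encodes a deubiquitinase acting on RIPK1, fell from 1182 ± 17.7 to 834 ± 59.7 (SD, n = 3), so that the log2 fold change was -0.50 (limma adjusted p = 0.000433). Birc3, encoding a ubiquitin ligase of the inhibitor of apoptosis family, was lower by 0.22 on the log2 scale (adjusted p = 0.0179), a call lost under 9 of 19 alternatives. Ticam1, encoding the adaptor TRIF, had a log2 fold change of 0.53 (adjusted p = 0.0192), lost under 8 of 19. Ripk1 had 375 ± 9.94 and 420 ± 11.7 (SD, n = 3) and did not pass (adjusted p = 0.115).

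All 5 called genes among the 9 of the death receptor complex were lower, 55.6% of the list, where 12.4% of all genes tested were lower. Fas, the death receptor itself, had 273, 262 and 268 normalized counts in WT cells and 86.0, 97.1 and 114 in Irf1-/- cells. The values did not overlap, and the log2 fold change was -1.44 (standard error 0.118, limma adjusted p = 2.72e-05). Cflar fell from 1200 ± 17.5 to 851 ± 92.0 (SD, n = 3), so that the log2 fold change was -0.50 (limma adjusted p = 0.00118). Tnfrsf10b, the receptor of TRAIL, was lower by 0.48 (adjusted p = 0.0120), a call lost under 5 of 19 alternatives, among them without WT replicate 2, without Irf1-/- replicate 1 and with Y-linked RNA as a covariate. The other 2, named because they complete the count, were Bid (-0.47) and Casp8ap2 (-0.32). The call of Bid was lost under 1 of 19 alternatives, without WT replicates 1 and 2, which leaves a single WT library. That of Casp8ap2 was lost under 11. Fadd, the adaptor between FAS and caspase-8, had means of 146 ± 19.7 and 142 ± 26.9 (SD, n = 3).

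In the group of the apoptosome and of caspase control, 3 of 12 genes were lower and none was higher, 25% called and thus near the 23.7% of all genes tested. Serpinb9, which encodes an inhibitor of granzyme B, had 416, 408 and 497 normalized counts in WT cells and 38.2, 33.3 and 60.7 in Irf1-/- cells. The WT mean was 9.99 times the Irf1-/- mean, and the log2 fold change was -3.33 (standard error 0.195, limma adjusted p = 2.45e-06), and its value is uncertain as far as reads match its close paralogs too. Apaf1, the scaffold on which caspase-9 is activated, fell from 607 ± 58.0 to 325 ± 14.3 (SD, n = 3), so that the log2 fold change was -0.90 (limma adjusted p = 5.70e-05). Xiap, an inhibitor of caspases, was lower by 0.24 (adjusted p = 0.0417), a call lost under 11 of 19 alternatives. Apaf1 and Serpinb9, like Fas, Cflar, Cyld, Aim2 and Il1a, kept their call under all 19.

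**Figure D3:**
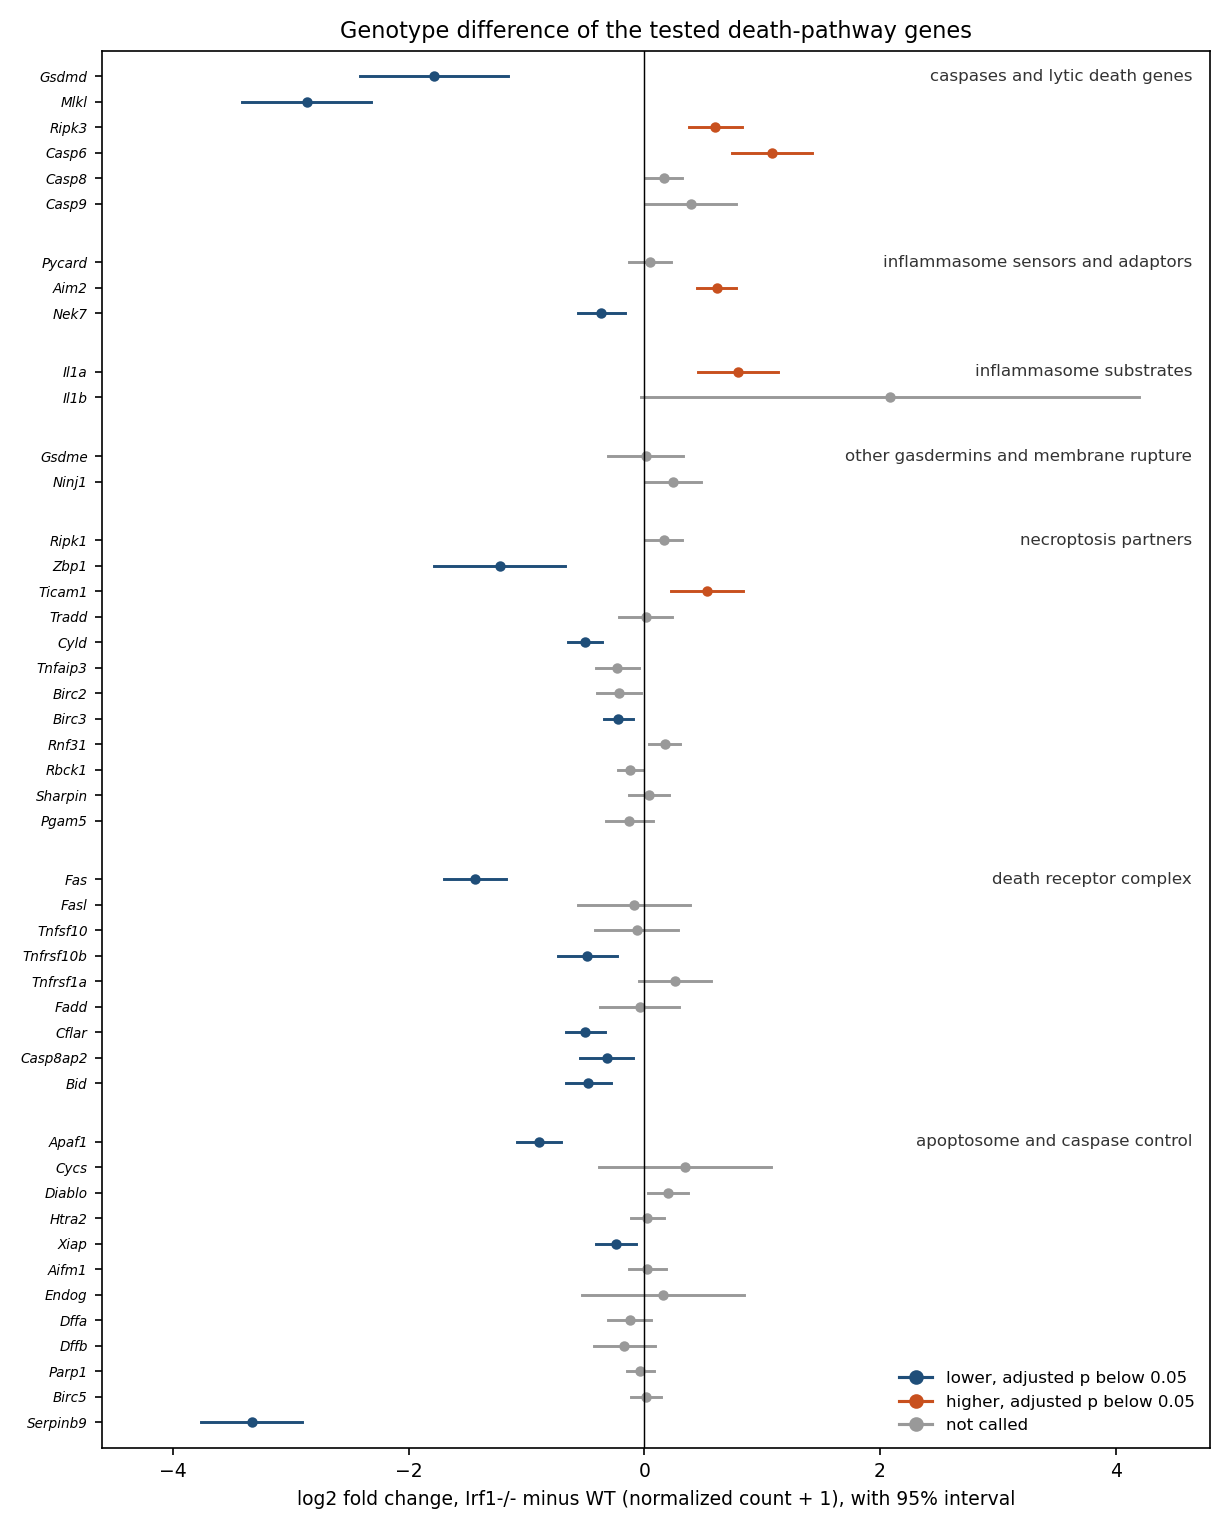
Log2 fold change of Irf1-/- over WT with its 95% interval for the 6 tested caspase and lytic death genes and for the tested genes of the pathway lists other than further caspases, blue where lower, orange where higher and grey where the adjusted p was 0.05 or above. Serpinb9, Mlkl, Gsdmd, Fas and Zbp1 stand farthest to the left, and the wide interval of Il1b reflects 251 normalized counts in a single library.

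**Figure D4:**
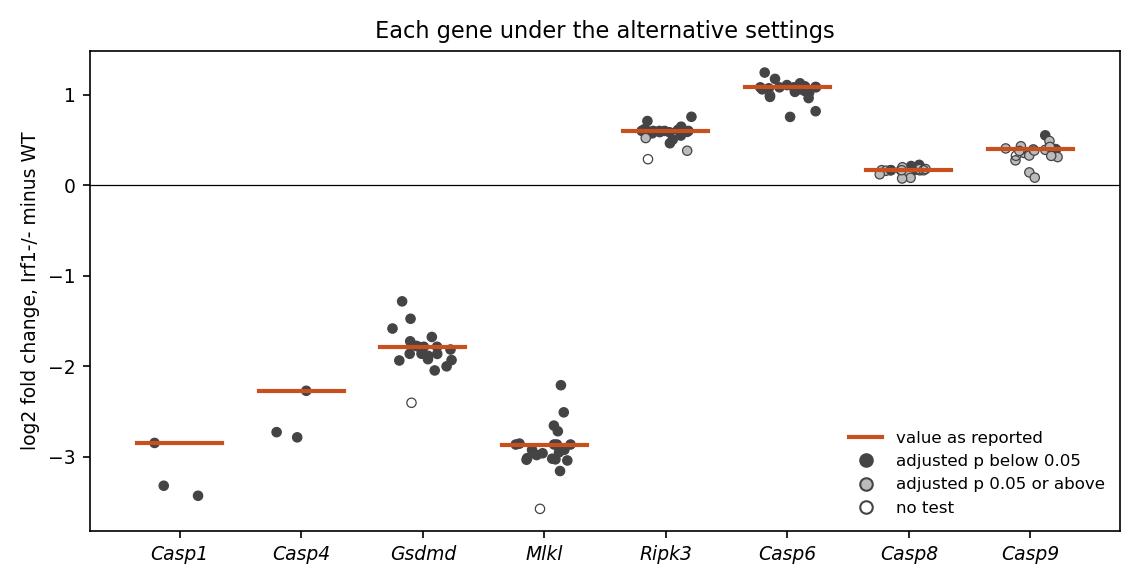
Log2 fold changes of the 8 genes as reported (line) and under the alternative settings (points, filled dark where the adjusted p was below 0.05, light where it was not, open where no test was possible). No point crosses 0, those of Ripk3 reach down to 0.29, and the points of Casp1 and Casp4 are fits without the filter, since these genes were otherwise not tested.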

How the data were processed

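The samples were 3 WT and 3 Irf1-/- Th9 cultures with IFN-γ, sequenced as single-end poly(A) RNA. Alignment by the authors was to GRCm38 in STAR (2.4.0b), with featureCounts for genes of Ensembl release 76, and DESeq2 (1.12.3) after it. The deposited signal is a normalized count, each count divided by a library size factor. All non-zero values (100%) were whole multiples of 1 step per library within 1e-06, so that reads were recovered. Whether strand was used in counting was not given in the sources used here, and the named library kit does not mark strand. Symbols, coordinates and exon lengths came from GENCODE M21 (GRCm38) by Ensembl identifier, which named 40254 genes.

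Differences were fitted with limma 3.58.1 under R 4.3.3 (eBayes with a trend) on log2 of the normalized count plus 1, for the 11379 genes whose mean reached 10, adjusted by Benjamini-Hochberg over all of these. Fold changes are on that scale, which understates changes of low genes. Limma took the place of the study's DESeq2 because the table holds normalized values, and recovered reads were tested in edgeR 4.0.16 and DESeq2 1.42.0 as alternatives. The others were a pseudocount of 0.1 or 10, a filter at 50 or none, TMM factors, quantile normalization, a fit without the trend, a replicate block, each library left out, the Y-linked level as a covariate, replicates 1 and 2 alone and replicate 3 alone. Chosen after seeing the data were edgeR and DESeq2 with no filter, WT replicates 1 and 2 left out together, replicates 1 and 2 averaged, and a looser promoter motif. Leaving out WT replicates 1 and 2 leaves a single WT library, so that the spread in that fit comes from the Irf1-/- libraries alone.

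The 8 genes, the lists, the tests and the other alternatives were chosen with earlier results of these data known. Named are all 8, Irf1, Cflar and Pycard, annotated neighbours within 50 kb, the 5 tested genes most correlated with Mlkl, the most changed of the 6 of these genes that were tested, and, per list, up to 3 called genes per direction with the largest change and no overlap. Ripk1, Fadd and Gsdme, which were not called, are named outside this rule. Others are named as chosen after their values were seen, or give the rest of a count. The steps were tested on simulated data with known changes. Protein sequences were not used here, and some genes of the lists and a motif are not reported here, though the list counts include those genes.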

Additional observations from a re-analysis of the deposited data

How the results depend on the processing

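Casp6, Mlkl and Gsdmd kept their direction and their call under every alternative with a test that was run, with log2 fold changes from 0.76 to 1.25 for Casp6, -3.58 to -2.21 for Mlkl and -2.40 to -1.28 for Gsdmd, whose ends of -3.58 and -2.40 are the untested differences between the replicate 3 libraries. That difference was 0.29 for Ripk3, whose call was lost at 0.52 with replicates 1 and 2 averaged (adjusted p = 0.0571 from limma). Without WT replicates 1 and 2, with a single WT library left, the log2 fold change of Ripk3 was 0.38. Casp8 became called with quantile normalization (0.23) and in replicates 1 and 2 alone (0.17), and ranged from 0.12 to 0.21 on leaving out single libraries, past the threshold without WT replicate 3. Casp9 ranged from 0.28 to 0.55 on leaving out single libraries, past the threshold without the same one, but was 0.09 without WT replicates 1 and 2. Casp1 and Casp4, reported without a test, were called lower with no filter in limma (-2.85 and -2.27), edgeR (-3.32 and -2.73) and DESeq2 (-3.43 and -2.79). Of the 8 genes, the number called lower was 4 with no filter and 1 with a mean of at least 50, where Gsdmd is not tested, and 2 with any library left out. The number called higher was 2 to 4 with each library left out and 1 with replicates 1 and 2 averaged. Of the pathway genes, 8 to 13 were lower with each library left out, the fewest without Irf1-/- replicate 1, and 6 with replicates 1 and 2 averaged. The number higher was 2 to 4, 5 with the Y-linked covariate and 7 in replicates 1 and 2 alone. The Casp1 to Casp4 ratio difference ranged from -0.87 to 0.01, changing sign (0.010) without Irf1-/- replicate 1, the library with no Casp1 read. The cause of the other changes was not tested.

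Replicate numbers are shared by the genotypes, but nothing in the labels pairs the cultures. Deviations of same-numbered libraries correlated at 0.092, 0.269 and 0.321, each library best with its own number, a hint from the data only. With a replicate block, 2116 genes were lower and 1893 higher, in place of 1406 and 1293. With replicates 1 and 2 averaged, 394 were lower and 413 higher, and the limma adjusted p was 0.00496 for Mlkl and 0.0206 for Gsdmd. Under the block Casp8 (0.17, adjusted p = 0.0195 from limma) and Casp9 (0.40, adjusted p = 0.0330) were also called, so that 4 of the 8 genes and 7 pathway genes were higher. Leaving out a single library, 824 (WT replicate 1 or 2) to 1471 genes were lower. With at most 2 reads in any Irf1-/- library, Casp1 and Casp4 are limited by depth.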

Other observations

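Neighbouring genes did not move uniformly with the 8 genes. Of the annotated genes within 50 kb that passed the filter, Pla2g12a, a phospholipase gene 5.6 kb from Casp6 on the same strand, was also higher in Irf1-/- cells. It had 359, 385 and 489 normalized counts in WT and 753, 833 and 825 in Irf1-/- cells, and the log2 fold change was 0.98 (limma adjusted p = 0.000150) beside 1.08 for Casp6. Mcub, 0.9 kb from Casp6 on the other strand, had a log2 fold change of 0.56 and did not pass (limma adjusted p = 0.0559). Next to Mlkl, which fell by 2.86 on the log2 scale, Rfwd3 fell by 0.20 (limma adjusted p = 0.0275). Around Gsdmd, none of Zc3h3, Naprt, Eef1d and Pycrl passed, with log2 fold changes from 0.06 to 0.33. Of the neighbours of Ripk3, Dhrs1 was higher by 0.48 (limma adjusted p = 0.0182) and Nop9 did not pass. Beside Casp9, Efhd2 fell by 0.38 (limma adjusted p = 0.00595) and Dnajc16 did not pass.

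The genes with a pattern most like that of Mlkl, which had the largest change of the 6 tested, over the 6 libraries, by Pearson's r of log2 values, were Rrm1 (0.9987), Sf3b3 (0.9984), Entpd1 (0.9984), Tspan2 (0.9978) and Cmss1 (0.9976). With 6 libraries in 2 groups, 395 of the genes tested had an r above 0.95, so that these names describe an order and no relation. Their log2 fold changes differed, from -2.96 for Entpd1 to -0.30 for Cmss1.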
